A study of Mus musculus with 45 samples.

Results

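The expression of 10 genes that encode enzymes of glycolysis was followed in 45 strand-specific, rRNA-depleted RNA-seq libraries of mouse ESCs leaving the naive state. The genes are Hk1, Hk2, Gpi1, Pfkl, Pfkp, Aldoa, Pgk1, Eno1, Pkm and Ldha, chosen by symbol from the 35372 genes counted in each library. The rule for choosing them uses no expression value. All libraries come from E14tg2a, a male line (the XY1 line) that the labels give as wild type on a 129/Ola background, so the results describe 1 line. Before differentiation the cells were kept either in 2iL, which is serum-free N2B27 medium with the GSK3 inhibitor CHIR99021, the MEK inhibitor PD0325901 and LIF, or in SL, which is serum with LIF. They were then differentiated along 3 courses. In the EB course, cells formed embryoid bodies in suspension on low-attachment dishes in serum medium without LIF. In the FA course, labelled EpiSC, they grew attached to gelatin in N2B27 with Fgf2 and Activin A. In the N2B27 course, labelled neural, they grew attached to gelatin in N2B27 alone. Libraries were made at days 0, 1, 1.5, 2, 2.5, 3, 5 and 7. Each medium, course and day has 1 library, except that SL has a single day 0 library for all courses, and day 5 of FA from 2iL was not analysed here. In comparisons of days, the 3 courses therefore serve as replicates. A course term there takes out constant differences between courses. A p-value then sets the mean change against the remaining spread, which comes from how unevenly the courses changed over all days fitted. In comparisons of courses or starting media, libraries of different days serve as replicates, together with those of the other medium or courses. Days of 1 course from 1 medium form 1 series and are not independent. At day 0 the spread comes from the 2iL libraries alone. The EB course differs from the other 2 in serum, attachment and aggregation at the same time, and these cannot be told apart.

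Glycolysis splits glucose into pyruvate in the cytosol, with a small net gain of ATP, and lactate dehydrogenase can then turn pyruvate into lactate and regenerate NAD. Hexokinase commits glucose to the pathway, phosphofructokinase is its main regulated step, and several steps are catalysed by any of a family of isoenzymes from separate genes. Naive mouse ESCs are known to use both glycolysis and mitochondrial respiration, while cells of the primed state rely more on glycolysis.

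Gene counts summed to between 13093226 and 39804240 reads in a library (median 18222720). The 8 libraries of the EB course from 2iL were the deepest group, with a median of 34490692 reads against 17297450 for the other 37. Levels are given as CPM, the count of a gene relative to the library total. The smallest count of any of the 10 genes in a library was 141 reads, far above the 3 reads that mark the detection floor here (0.0754 to 0.229 CPM), so counting error was small beside the differences between courses. The labels were checked against marker genes. The summed CPM of 8 naive pluripotency genes, with none of them at 0, was 4194 to 4468 in the 2iL libraries at day 0 and 2531 in SL, and it was 58.1 to 312 in the 11 libraries of days 5 and 7. The SL day 0 library also held 430 CPM of 6 extraembryonic endoderm genes, against 3.19 to 5.32 CPM in the 2iL libraries. In bulk RNA, fewer cells of a type and less RNA of a gene per cell cannot be told apart.

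In the GRCm38 build that the counts use, all 10 are annotated as protein-coding genes. The genes of the first steps are Hk1 (ENSMUSG00000037012) at chr10:62268855-62379908 on the negative strand, Hk2 (ENSMUSG00000000628) at chr6:82725025-82774454 on the negative strand and Gpi1 (ENSMUSG00000036427) at chr7:34201330-34230336 on the negative strand. Phosphofructokinase and aldolase are encoded by Pfkl (ENSMUSG00000020277) at chr10:77986947-78010083 on the negative strand, Pfkp (ENSMUSG00000021196) at chr13:6579768-6648777 on the negative strand and Aldoa (ENSMUSG00000030695) at chr7:126795234-126800751 on the negative strand. The genes of the later steps are Pgk1 (ENSMUSG00000062070) at chrX:106187100-106203699 on the positive strand, Eno1 (ENSMUSG00000063524) at chr4:150236721-150248879 on the positive strand, Pkm (ENSMUSG00000032294) at chr9:59656368-59679375 on the positive strand and Ldha (ENSMUSG00000063229) at chr7:46841475-46855627 on the positive strand. All 10 genes were well expressed throughout, but on very different levels and with ranges of very different width. Together they took between 0.425% of the reads, in the N2B27 course from 2iL at day 1, and 1.5005%, in EBs from SL at day 3. Between genes, levels can only be compared per length. In CPM per kb of annotated exon, the 3 day 0 libraries in 2iL gave 13.7 ± 1.03 (SD, n = 3) for Hk1, 14.1 ± 1.70 for Pfkl and 17.3 ± 1.74 for Pfkp at the low end. The order went on over Hk2 (62.1 ± 3.14), Gpi1 (80.2 ± 4.23), Ldha (106 ± 17.7), Pgk1 (172 ± 10.8) and Eno1 (206 ± 31.8) to Pkm (360 ± 22.1) and Aldoa (379 ± 22.3). Neighbours whose libraries overlapped in this order were Hk1 with Pfkl, Pfkl with Pfkp, Pgk1 with Eno1, and Pkm with Aldoa. The hexokinase and phosphofructokinase genes thus had the lowest RNA levels of the 10, and Pkm and Aldoa the highest, with Ldha in the middle of the order. Over the 45 libraries, CPM varied 31.0-fold for Pfkp, 13.3-fold for Ldha, 10.1-fold for Hk1 and 7.60-fold for Pfkl, but only 3.18-fold for Gpi1 and 3.20-fold for Pkm. The highest library was EBs from SL at day 3 for 7 genes (Gpi1, Pfkl, Aldoa, Pgk1, Eno1, Pkm and Ldha), whereas Hk1, Hk2 and Pfkp were highest in an undifferentiated 2iL library.

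**Figure D1:**
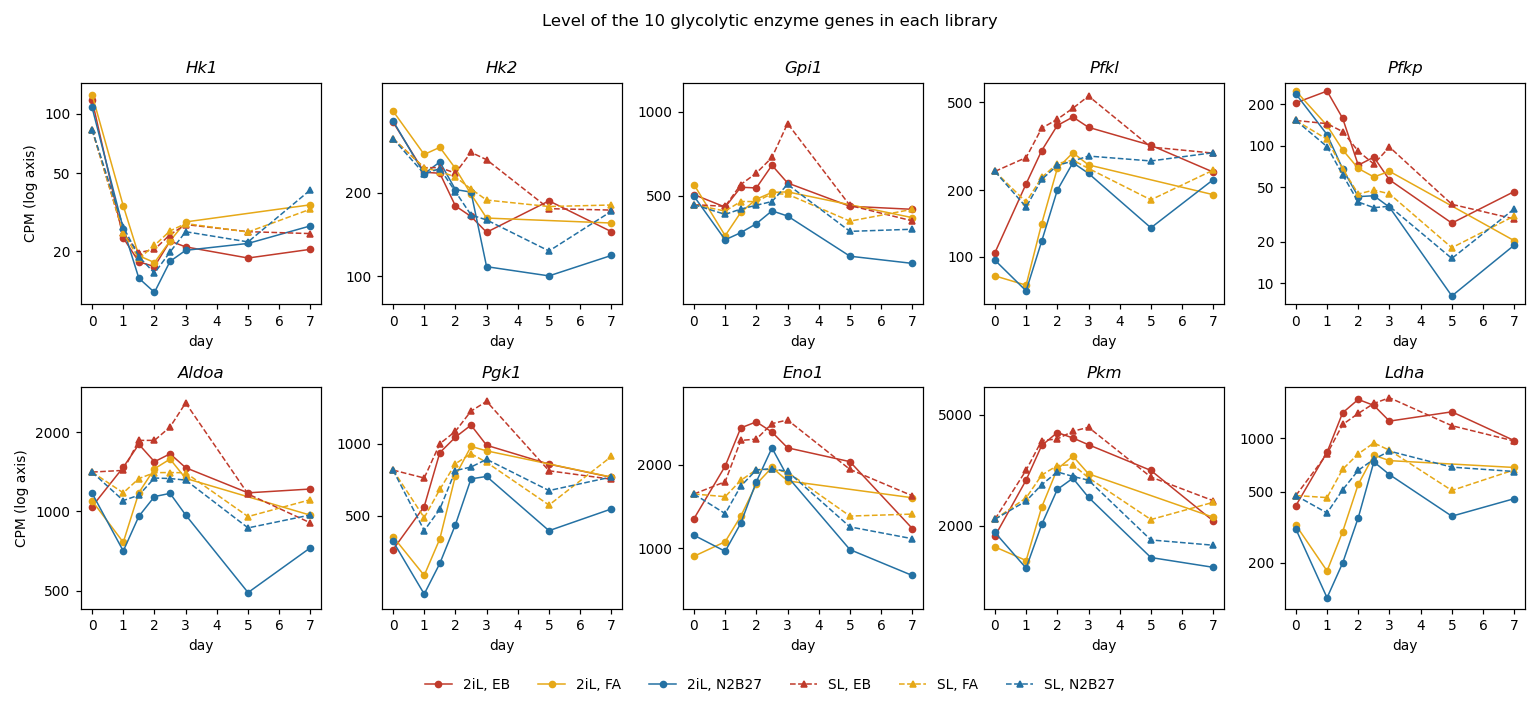
CPM (log axis) of each of the 10 genes against day of differentiation; each point is 1 library, colours are the 3 courses, circles with solid lines start from 2iL and triangles with dashed lines from SL, whose single day 0 library is drawn at the start of each SL course. Hk1 drops within the first day in all 6 courses, Pfkp runs from 206 to 251 CPM in 2iL at day 0 and from 18.9 to 46.5 CPM at day 7, and Pfkl, Pgk1 and Ldha reach their highest values in EBs at days 2 to 3.

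The media were first compared before differentiation. In ESCs at day 0, Pfkl and Pgk1 were lower in 2iL than in SL, and Hk1 and Pfkp were higher. Pfkl, the liver-type phosphofructokinase, was at 104, 82.04 and 96.6 CPM in the 2iL libraries and 243.5 CPM in SL, a log2 fold change of -1.30 ± 0.18 (SE, adjusted p = 0.000926, edgeR's quasi-likelihood test, Benjamini-Hochberg adjusted over all genes tested, as for every adjusted p here unless another tool is named). Pgk1, which makes the first ATP of the pathway, was at 360.1, 408 and 390.04 CPM in 2iL and 776 CPM in SL (-0.95 ± 0.18, adjusted p = 0.00429). The SL library stood outside the range of the 2iL libraries for each of the 10 genes, also for those that did not pass. This does not set Pfkl and Pgk1 apart. Pfkp, the platelet-type phosphofructokinase, was at 206, 251 and 239 CPM in 2iL against 153 CPM in SL, and Hk1, the widely expressed hexokinase, at 117, 125 and 108 CPM against 83.2 CPM. The log2 fold changes were smaller, 0.66 ± 0.19 (adjusted p = 0.0289) for Pfkp and 0.55 ± 0.16 (adjusted p = 0.0306) for Hk1, and neither held when libraries were scaled to their totals (adjusted p = 0.0543 and 0.0911). Pfkp also missed the threshold with the spread estimated over all 45 libraries (adjusted p = 0.123), and Hk1 without the FA day 0 library (adjusted p = 0.0605). The other 6 genes did not pass, with log2 fold changes between -0.44 (Eno1) and 0.31 (Hk2). Thus 2 of the 10 genes were higher and 2 lower, where 13.5% and 17.3% of the 14948 genes tested were called in these directions. The median log2 fold change was -0.23 for the 10 genes and 0.01 for all genes tested. SL has 1 library at day 0, so its own spread is unknown, and its extraembryonic endoderm RNA moves with this contrast. The part of that RNA in these differences was not tested.

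On the first day of differentiation, Hk1 fell sharply from both media. Hexokinases phosphorylate glucose and trap it in the cell. From 2iL, Hk1 went from 117 to 23.4 CPM in EBs, from 125 to 34.1 CPM in FA and from 108 to 26.1 CPM in N2B27. From SL, it went from 83.2 CPM to 24.7, 24.8 and 26.6 CPM in the same order. Every day 1 library was below every day 0 library, and Hk1 never returned, with 20.5 to 41.1 CPM at day 7. The log2 fold change of day 1 against day 0 was -2.10 ± 0.13 from 2iL (adjusted p = 4.68e-08) and -1.66 ± 0.20 from SL (adjusted p = 0.000168), and Hk1 passed under every alternative in both media. The difference between the media in this change, -0.47 ± 0.25, did not pass (adjusted p = 0.249). Hk2, a hexokinase induced by insulin and hypoxia in many tissues, fell less. From 2iL, Hk2 went from 358 to 392 CPM at day 0 to 234 to 274 CPM at day 1 (-0.60 ± 0.17, adjusted p = 0.0146). From SL, Hk2 was at 312 CPM at day 0 and at 233 to 246 CPM at day 1 (-0.32 ± 0.19, adjusted p = 0.253). Gpi1, which interconverts glucose 6-phosphate and fructose 6-phosphate, fell from 2iL (-0.45 ± 0.10, adjusted p = 0.0042), and its change from SL was -0.02 ± 0.18 (adjusted p = 0.953).

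From 2iL, none of the 10 genes rose and 3 fell on this first day, where 14.6% and 14% of the 16306 genes tested were called higher and lower. From SL, none rose and 1 fell, where 8.46% and 9.69% of 16482 genes were called, and DESeq2's Wald test also called a rise of Pkm (0.41, adjusted p = 0.0279). The medians over the 10 genes were -0.34 from 2iL and -0.18 from SL, against 0.02 and -0.01 over all genes tested. Markers of other cell states moved with the day. The 8 naive pluripotency markers, of which 6 fell from 2iL and 4 from SL, summed to 4194 to 4468 CPM in 2iL and 2531 CPM in SL at day 0, and to 946 to 1290 CPM and 769 to 914 CPM at day 1. The 4 epiblast markers all rose from 2iL, from a sum of 94.9 to 125 CPM to 394 to 1213 CPM, highest in EBs. From SL all but Otx2 were called higher, and the sum went from 225 CPM to 462 to 1118 CPM, again highest in EBs. The part of these cell states in the changes was not tested. The counts of enzymes depended on the courses. Without EB, 7 genes fell from 2iL, with Pfkp, Aldoa, Pgk1 and Ldha added, and 3 fell from SL, with Pfkp and Pgk1 added. Without FA, Hk1 alone passed from 2iL.

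The courses were also read one by one on this day. Pfkl, Aldoa and Ldha had more CPM at day 1 than at day 0 in both EB courses and fewer in all 4 attached courses. Ldha, the muscle-type lactate dehydrogenase subunit, went from 417 to 833 CPM in EBs from 2iL but from 325 to 180 CPM in FA and from 308 to 127 CPM in N2B27. From SL, where day 0 was at 476 CPM, Ldha reached 815 CPM in EBs, 463 CPM in FA and 380 CPM in N2B27. The median change of the 10 genes on the scale of log2(CPM + 1) was 0.55 in EBs from 2iL, where 7 genes were higher, -0.53 in FA, where 9 were lower, and -0.68 in N2B27, where all 10 were lower. From SL it was 0.00 in EBs, with 5 genes higher and 5 lower, -0.30 in FA and -0.39 in N2B27, each with 9 lower. Each of these changes sets 1 library against 1 library, and they were not tested within a course.

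**Figure D2:**
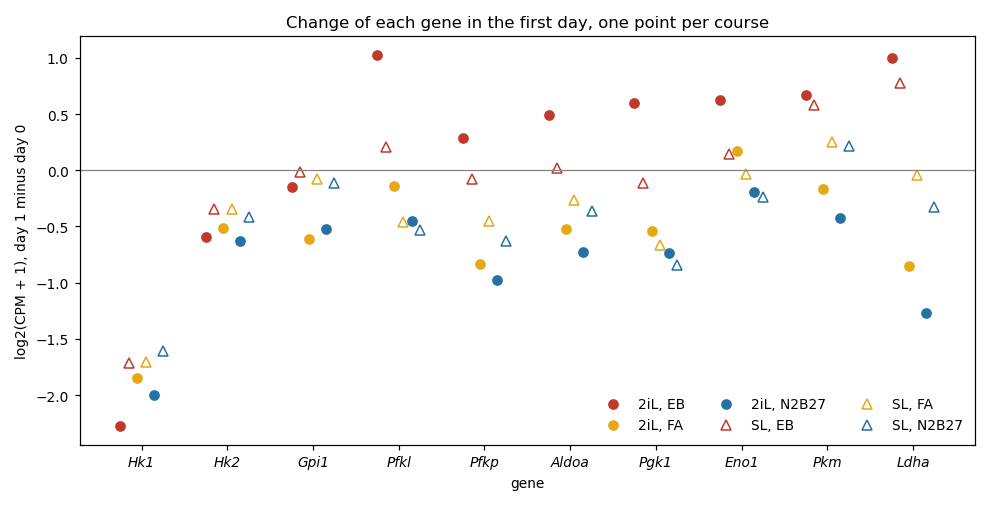
Difference in log2(CPM + 1) between day 1 and day 0 for each gene, 1 point for each of the 6 courses; filled circles start from 2iL and open triangles from SL, which shares 1 day 0 library. Hk1 and Hk2 are below 0 in all 6 courses, whereas Ldha is at 0.995 in EBs from 2iL and at -0.85 and -1.27 in FA and N2B27 from 2iL.

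From day 1 to day 3, 6 of the 10 genes rose from both media, while Pfkp fell. From 2iL, 6 of the 10 genes rose (Gpi1, Pfkl, Pgk1, Eno1, Pkm and Ldha) and 2 fell (Hk2 and Pfkp), where 23.6% and 22% of genes tested were called in these directions. From SL, 7 rose, the same 6 and Aldoa, and 1 fell, Pfkp, where 21.6% and 19.8% were called. The medians of the 10 genes were 0.49 and 0.47, against 0.04 and 0.03 over all genes tested. Markers moved in the same interval. Of the 8 naive pluripotency markers 7 fell from each medium, to sums of 103 to 313 CPM from 2iL and 142 to 242 CPM from SL at day 3. Of the 6 extraembryonic endoderm markers 4 rose from 2iL, from a sum of 12.3 to 16.8 CPM to 209 to 432 CPM, and none was called from SL, where the sum was 716 to 1469 CPM and 629 to 1932 CPM. Neural markers summed to 53.1 to 90.4 CPM and 121 to 388 CPM from 2iL and to 40.6 to 79.3 CPM and 96.4 to 305 CPM from SL. Among them Nes alone passed (2.35 from 2iL and 3.55 from SL), and Tubb3 had negative log2 fold changes from both media (-0.41 and -0.36). The part of these cell states in the changes was not tested.

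Among these genes Ldha, Pfkl and Pgk1 had the largest rises. Ldha was at 833, 180 and 127 CPM at day 1 and at 1245, 747 and 624 CPM at day 3 in EB, FA and N2B27 from 2iL, a log2 fold change of 1.58 ± 0.38 (adjusted p = 0.00331). From SL it went from 815, 463 and 380 CPM to 1685, 854 and 845 CPM (1.01 ± 0.13, adjusted p = 2.92e-05). Ldha was higher at day 3 within every course. The days did not overlap from SL, but they did from 2iL, where EBs at day 1 were above the attached courses at day 3. Pfkl went from 214, 74.5 and 70.2 CPM to 385, 260 and 238 CPM from 2iL (1.41 ± 0.24, adjusted p = 0.000248), and from 281, 177 and 168 CPM to 534, 251 and 286 CPM from SL (0.72 ± 0.15, adjusted p = 0.00172). Pgk1 went from 546, 281 and 234 CPM to 986, 934 and 730 CPM from 2iL (1.39 ± 0.24, adjusted p = 0.000281), and from 719, 490.06 and 433 CPM to 1506, 836 and 861 CPM from SL (0.93 ± 0.17, adjusted p = 0.000482). For Pfkl and Pgk1 from 2iL every day 3 library was above every day 1 library. The other genes that rose moved less. Eno1, the enolase that makes phosphoenolpyruvate, rose by 0.59 ± 0.23 from 2iL and 0.49 ± 0.09 from SL, and Pkm, which encodes both muscle-type pyruvate kinase isoforms, by 0.73 ± 0.19 and 0.32 ± 0.10. Gpi1 rose by 0.35 ± 0.10 and 0.51 ± 0.13. Aldoa, the aldolase that splits fructose 1,6-bisphosphate, rose by 0.46 ± 0.16 from SL (adjusted p = 0.0304) and changed by 0.38 ± 0.21 from 2iL (adjusted p = 0.142).

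Pfkp went the other way. From 2iL it was at 250.4, 141 and 121 CPM at day 1 and at 56.6, 65.2 and 35.8 CPM at day 3 (-1.66 ± 0.28, adjusted p = 0.000196). From SL it was at 145, 112 and 98.7 CPM and then at 98.0, 44.8 and 36.4 CPM (-1.11 ± 0.22, adjusted p = 0.000801). Pfkp was lower at day 3 in all 3 courses from both media, and from 2iL the days did not overlap. Hk2 fell from 2iL (-0.87 ± 0.17, adjusted p = 0.00073) to 108 to 162 CPM, and its change from SL was -0.29 ± 0.14 (adjusted p = 0.105).

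The number of calls between days 1 and 3 depended on how the courses were handled, though no called value changed sign. With no term for the course, 4 genes passed from 2iL (Hk2, Pfkl, Pfkp and Pgk1) and 2 from SL (Gpi1 and Pgk1), and Ldha then had an adjusted p of 0.234 and 0.0723. From 2iL, 10 passed without EB, and 4 passed without FA and without N2B27. From SL, Aldoa missed the threshold without each of the courses (adjusted p = 0.0787 without EB, 0.115 without FA and 0.0623 without N2B27), and Pkm without EB (0.232) and without FA (0.105). In a fit of the 6 libraries of these days alone, 5 passed from SL, and Gpi1, Aldoa and Pkm did not. The difference between the media in this change passed for none of the 10 genes, where 1.19% of 17107 genes were called; 2 had an unadjusted p under 0.05 in edgeR, and DESeq2 called none. Without EB it passed for Pfkl (1.19), Pgk1 (0.84) and Ldha (1.20), each with the larger rise from 2iL.

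From day 3 to day 7 every one of the 10 genes that passed the test fell. From 2iL, 4 genes fell (Gpi1, Pfkp, Eno1 and Pkm) and none rose, where 13.9% and 14.3% of genes tested were called lower and higher. From SL, 6 fell (Gpi1, Pfkp, Aldoa, Eno1, Pkm and Ldha) and none rose, where 14.6% and 15.4% were called. Pkm, the largest consumer of reads among the 10 genes, went from 3907, 3072 and 2529 CPM to 2080.5, 2145 and 1418 CPM in EB, FA and N2B27 from 2iL (-0.78 ± 0.19, adjusted p = 0.00683). From SL, Pkm went from 4512, 2972 and 2914 CPM to 2460 (EB), 2428 and 1702 CPM (-0.64 ± 0.11, adjusted p = 0.000686). Day 7 was below day 3 in all 6 courses, and the days did not overlap in either medium. Eno1 fell by 0.77 ± 0.23 and 0.73 ± 0.09, Gpi1 by 0.43 ± 0.10 and 0.63 ± 0.13, and Pfkp by 0.98 ± 0.28 and 0.74 ± 0.22. From SL, Pfkp had a log2 fold change of -0.30 without EB (adjusted p = 0.128) and missed the threshold without FA (adjusted p = 0.129), and Ldha missed it without each of these (adjusted p = 0.143 and 0.0586). Hk1, which was lowest at day 1.5 or 2 in every course, had log2 fold changes of 0.19 ± 0.13 and 0.29 ± 0.15 that did not pass (adjusted p = 0.272 and 0.156). The medians of the 10 genes were -0.42 and -0.57, against 0.03 over all genes tested in both media. Extraembryonic endoderm markers summed to 209 to 432 CPM at day 3 and 164 to 2202 CPM at day 7 from 2iL. From SL they summed to 629 to 1932 CPM and 109 to 2634 CPM, and day 7 was highest in N2B27. Gata4, Gata6 and Sox17 rose from 2iL, and none of the list passed from SL. Of the epiblast markers, Pou3f1 fell from both media (-2.47 and -1.80) and Dnmt3b from SL (-1.66), while Fgf5 and Otx2 did not pass. The part of these cell states was not tested.

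These later calls depended on the fit. With no term for the course, none of the 10 genes passed from 2iL and 3 passed from SL, and in fits of the 2 days alone none passed from either medium, with 5 and 3 genes called of all tested. From 2iL, leaving out N2B27 gave 0 calls and leaving out FA gave 2. With the course term 4 and 7 of the 10 genes had an unadjusted p under 0.05, and DESeq2 called 4 and 6. The difference between the media in this change was called for 0% of genes by edgeR and for 30 genes by DESeq2, none of them among the 10, none of which had an unadjusted p under 0.05.

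**Figure D3:**
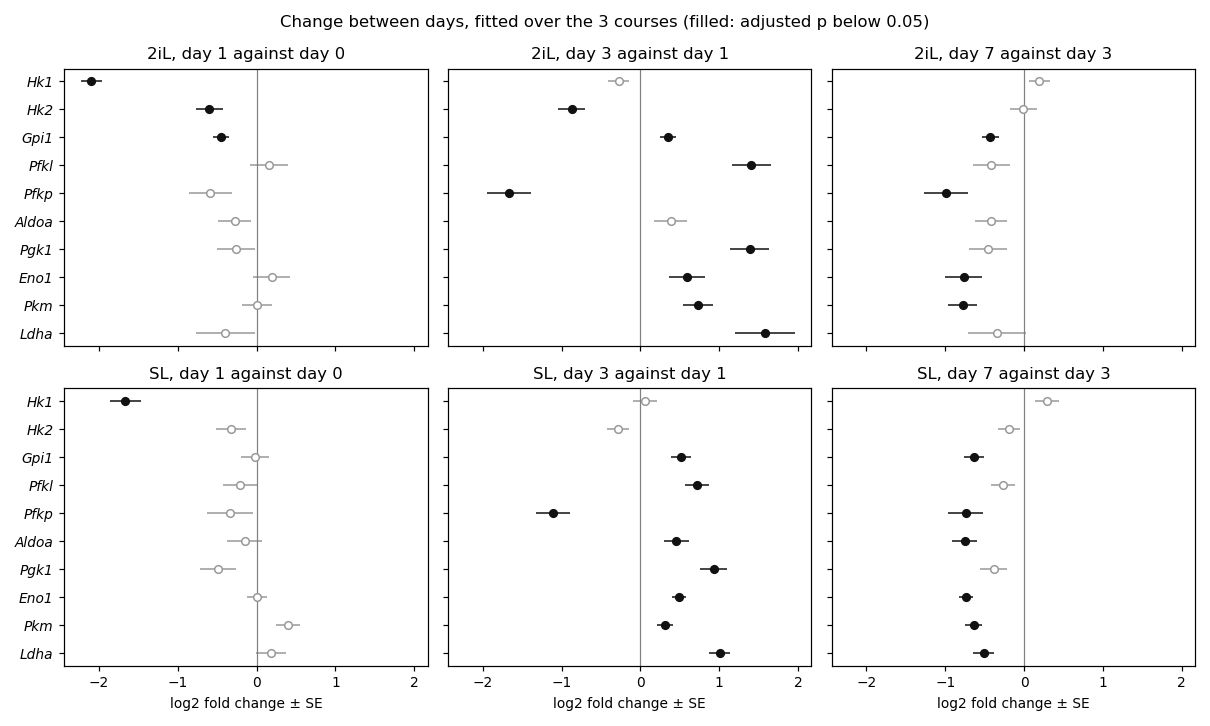
Log2 fold change ± SE of each gene between days 0 and 1, 1 and 3, and 3 and 7, fitted over the 3 courses from 2iL (top) and from SL (bottom); filled points have an adjusted p below 0.05. The first day shows Hk1 far to the left, at -2.10 and -1.66, the middle interval shows Ldha, Pfkl and Pgk1 to the right and Pfkp to the left, and the last interval lies mostly left of 0.

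The difference between EBs and the attached courses was then tested over days 1, 1.5 and 2, with libraries matched by medium and day. In EBs 8 of the 10 genes were higher than in N2B27 and none was lower, where 22% and 19.9% of the 15013 genes tested were called. Ldha had the largest difference. It was at 833, 1387 and 1648 CPM in EBs from 2iL and at 815, 1192 and 1374 CPM in EBs from SL, against 127, 199 and 357 CPM and 380, 512 and 659 CPM in N2B27. Every EB library was above every N2B27 library, with a log2 fold change of 1.80 ± 0.22 (adjusted p = 2.99e-05). Pgk1 (0.94 ± 0.10), Pfkl (0.94 ± 0.11), Pfkp (0.89 ± 0.10), Eno1 (0.61 ± 0.10), Pkm (0.57 ± 0.09), Aldoa (0.57 ± 0.09) and Gpi1 (0.26 ± 0.05) were also higher, all with an adjusted p of 0.000477 or below. Each of these 8 genes was higher in EBs in 6 of 6 matched pairs, and all 8 were called when any 1 of the 6 pairs was left out. The pairs are days 1, 1.5 and 2 of 1 EB and 1 N2B27 series from each medium, so they are not independent. Leaving out 1 pair keeps the other days of the same series. Pfkp, which had lower levels at day 3 than at day 1 in every course, was still higher in EBs than in N2B27 of the same day, at 250.4, 159 and 72.3 CPM against 121, 67.9 and 42.7 CPM from 2iL. The hexokinases were the exception. Hk1 differed by 0.06 ± 0.08 and Hk2 by -0.09 ± 0.07, and each was higher in EBs in 4 of 6 pairs. The median log2 fold change was 0.59 for the 10 genes and 0.00 for all genes. Of all called genes, 52.5% were higher in EBs with TMM scaling and 69.6% with library totals, and the 8 calls were made under both. Other cell types moved with the course. At days 1 to 2 the 4 epiblast markers summed to 1118 to 2952 CPM in EBs and 394 to 971 CPM in N2B27, and the 6 extraembryonic endoderm markers to 12.3 to 1929 CPM and 16.8 to 972 CPM. Mesendoderm markers summed to 14.6 to 40.9 CPM in EBs and 6.33 to 11.4 CPM in N2B27. Neural markers summed to 38.6 to 57.2 CPM and 72.7 to 122 CPM, so that the courses did not overlap in either list. All 4 epiblast markers were higher in EBs (Fgf5 3.41, Otx2 2.07, Dnmt3b 1.43 and Pou3f1 1.17). Single markers of the extraembryonic endoderm and neural lists went both ways. Among extraembryonic endoderm markers Amn (1.24), Dab2 (1.07) and Cubn (1.05) were higher in EBs, Gata6 (-1.05) was lower, and Gata4 and Sox17 did not pass. Among neural markers Sox1 (-2.66), Pax6 (-1.85) and Tubb3 (-1.27) were lower, Neurod1 (1.18) was higher and Nes did not pass. Among mesendoderm markers Eomes (1.29) alone passed. The part of these cells in the differences was not tested.

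The attached courses with and without Fgf2 and Activin A showed no difference that passed the test. Over the same days none of the 10 genes passed between FA and N2B27, where 6.58% of genes were called in either direction. None had an unadjusted p under 0.05, and DESeq2 also called none. The largest log2 fold changes were 0.31 ± 0.21 for Ldha, 0.19 ± 0.10 for Pfkp and 0.18 ± 0.10 for Pgk1. Ldha was at 180, 298 and 550.2 CPM in FA from 2iL and at 463, 668 and 815 CPM in FA from SL, above N2B27 in 6 of 6 pairs. In plain CPM, Gpi1, Pfkl, Pfkp, Aldoa, Pgk1 and Pkm were also above N2B27 in 6 of 6 pairs. With library totals in place of TMM the median of all genes moved by 0.12 and the share of calls that were higher in FA went from 58.8% to 90.9%. Pfkp was then the 1 gene called (0.32, adjusted p = 0.0432), and the size of small differences between these courses depends on the scaling.

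EBs and N2B27 were compared in the same way at days 5 and 7, over 4 pairs, and a change of the difference with time was not tested. Ldha, Pfkp, Pkm and Eno1 were higher in EBs, which is 4 of the 10 genes against 13.1% of the 15466 genes tested, and none was lower, against 15.7%. Ldha was at 1404 and 968 CPM (days 5 and 7) in EBs from 2iL and at 1173 and 963 CPM in EBs from SL, against 364 and 457 CPM and 687 and 649 CPM in N2B27. The courses did not overlap, with a log2 fold change of 0.98 ± 0.23 (adjusted p = 0.0167). Pkm was 0.62 ± 0.12 (adjusted p = 0.00992), Eno1 0.60 ± 0.15 (adjusted p = 0.0204) and Pfkp 0.95 ± 0.29 (adjusted p = 0.0406). Pkm and Eno1 were higher in 4 of 4 pairs and Pfkp in 3 of 4. Without day 5 from SL none of the 4 passed (Ldha then had an adjusted p of 0.0503), 2 passed without day 5 from 2iL and 2 without day 7 from 2iL, and DESeq2 called 6. With library totals the median of all genes moved by 0.10 and the share of calls that were higher in EBs went from 45.5% to 57.6%. Extraembryonic endoderm markers summed to 1151 to 2634 CPM in N2B27 and 94.9 to 917 CPM in EBs at these days. Mesendoderm markers summed to 3.73 to 7.36 CPM in N2B27 and 146 to 734 CPM in EBs, and neural markers to 350 to 615 CPM and 101 to 266 CPM, again without overlap. The part of these cells in the differences was not tested. Between FA and N2B27 none of the 10 genes passed, where 16% of genes were called in either direction. Of these, 45.9% were higher in FA with TMM and 58.6% with library totals. Eno1 (0.43 ± 0.16) and Pkm (0.42 ± 0.13) had an unadjusted p under 0.05, and DESeq2 called Pkm (adjusted p = 0.0161). Without day 5 from 2iL, which has no FA library, edgeR called Pfkl lower in FA (-0.44).

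**Figure D4:**
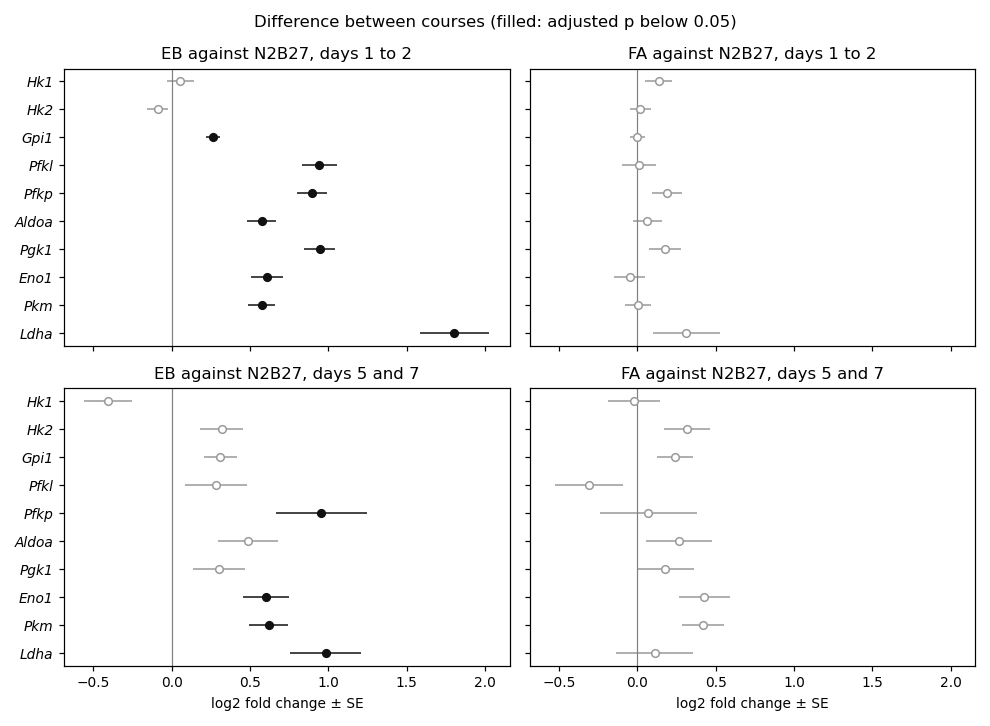
Log2 fold change ± SE of each gene in EB (left) and FA (right) against N2B27, over days 1 to 2 (top) and days 5 and 7 (bottom), with libraries matched by medium and day; filled points have an adjusted p below 0.05. At days 1 to 2 the 8 genes from Gpi1 to Ldha lie right of 0 in EBs, up to 1.80 for Ldha, while no gene in FA passes.

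Libraries from the 2 starting media were compared after differentiation had begun. Over days 1 to 2, with libraries matched by course and day, cells from 2iL had less Gpi1, Pfkl, Aldoa, Pgk1, Pkm and Ldha than cells from SL and more Pfkp. These 6 lower genes and 1 higher gene compare with 24.3% and 24.7% of the 15279 genes tested. Ldha had the largest difference (-0.69 ± 0.20, adjusted p = 0.0131), but it was lower from 2iL in only 6 of 9 matched pairs, since EBs from 2iL were above EBs from SL on all 3 days. Pfkl (-0.57 ± 0.13, adjusted p = 0.00299) and Pgk1 (-0.49 ± 0.09, adjusted p = 0.000716) were lower in 9 of 9 pairs. At day 1, for example, Pgk1 was at 546, 281 and 234 CPM from 2iL and at 719, 490.06 and 433 CPM from SL. Pkm (-0.28), Aldoa (-0.22) and Gpi1 (-0.14) differed by less, and Pfkp was higher by 0.33 ± 0.08 in 8 of 9 pairs. Hk1 and Hk2 differed by -0.09 ± 0.07 and 0.04 ± 0.06. Only Pfkl and Pgk1 were called without FA, 3 genes were called without N2B27 and 9 without EB. The 6 extraembryonic endoderm markers, all 6 of them lower from 2iL, summed to 12.3 to 249 CPM from 2iL and 716 to 1929 CPM from SL at these days, and their part was not tested. By days 5 and 7, none of the 10 genes passed, where 0.237% of 16028 genes were called in either direction. Hk1, Hk2 and Pfkl had an unadjusted p under 0.05, DESeq2 called none, and without EB edgeR called Pfkp (-0.80, adjusted p = 0.0367). All 10 log2 fold changes were negative, from -0.43 (Pfkp) to -0.14 (Gpi1). The change from day 0 to day 1 was not called different between the media for any of the 10 genes, where 8.96% of genes were. Of these calls 51.9% were more positive from 2iL with TMM and 68.5% with library totals. Gpi1 alone had an unadjusted p under 0.05, DESeq2 called none, and without EB Gpi1 (-0.56) and Ldha (-0.98) passed.

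Isoenzymes of the same step were compared within each library, per kb of exon, as the share of one gene in a pair. In the pair of Pfkp and Pfkl, without the muscle-type gene Pfkm, the share of Pfkp was lower after day 0 than in undifferentiated 2iL cells. Pfkp made up 49.5%, 60.4% and 55.2% of Pfkp and Pfkl in the 2iL libraries at day 0 (EB, FA and N2B27) and 23.8% in SL. By day 2 it was at 9.99% ± 1.81 (SD, n = 3) from 2iL and 8.18% ± 1.46 from SL, and by day 7 at 5.95% ± 2.47 and 5.38% ± 0.578. The ranges of the media did not overlap at days 0 and 1 to 1.5 and did at day 2. Hexokinase moved towards Hk2, from 81.96% ± 0.722 at day 0 in 2iL to 95.6% ± 0.598 at day 1.5, and back to 88.0% ± 2.63 at day 7, with 84.3%, 94.8% ± 0.107 and 88.4% ± 2.67 from SL. Both hexokinase genes had fewer CPM at day 1 than at day 0 in all 6 courses, Hk1 by the larger factor in each. Lactate dehydrogenase moved from a mixture with Ldhb, the heart-type subunit, to mostly Ldha. Ldha made up 40.8% to 59.9% of the pair at day 0 in 2iL, 42.3% in SL, and 87.9% ± 7.65 and 88.2% ± 4.73 at day 3. The timing depended on the course. In FA and N2B27 from 2iL the share was 35.0% and 32.4% at day 1, below day 0, whereas in EBs it was already 75.5%. Ldhb itself fell between days 1 and 3 (-1.38 from 2iL, adjusted p = 0.0349, and -0.80 from SL, adjusted p = 0.0395), but this fall was not seen in EBs. There Ldhb went from 81.9 to 98.0 CPM per kb from 2iL and from 73.3 to 106 CPM per kb from SL, against 80.2 to 11.8 and 76.1 to 23.4 CPM per kb in N2B27, and FA was also lower at day 3 from both media. These shares carry no test and rest on union exon lengths, so they depend on the annotation as well as on the reads.

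**Figure D5:**
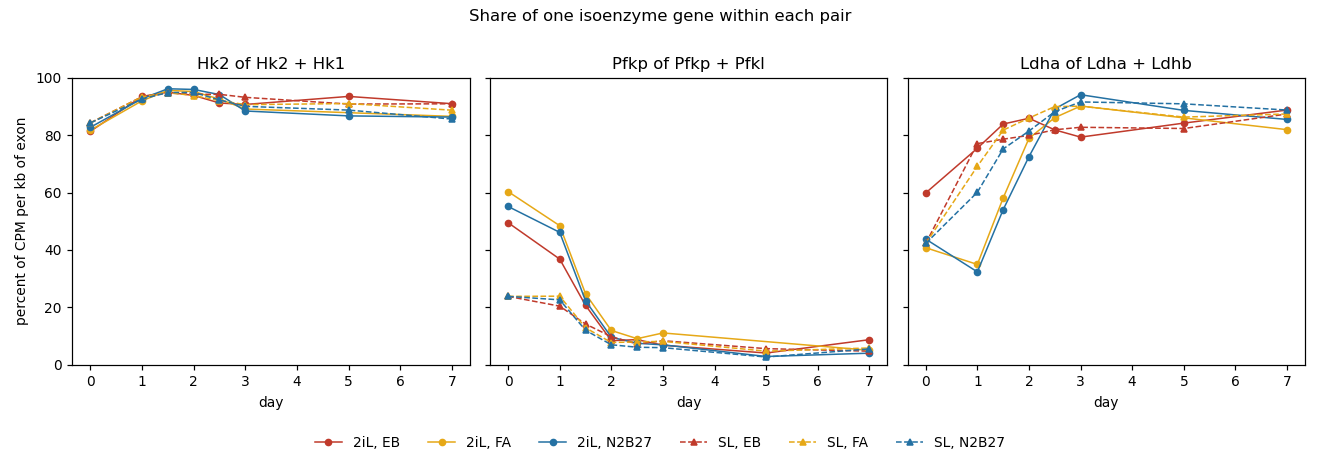
Share of 1 isoenzyme gene within each pair, in percent of the CPM per kb of exon of both genes, against day; each point is 1 library, with colours, symbols and lines for courses and media as given in the key. Pfkp falls from 49.5 to 60.4% in 2iL at day 0 to under 10% at day 7 in every course, Hk2 stays above 81%, and the share of Ldha at day 1 runs from 32.4% to 77.1% between courses.

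The genes fell into groups by pattern. Over the 45 libraries, which share media, courses and starting cells and are not independent, Pearson's r of log2(CPM + 1) was 0.94 between Pgk1 and Pfkl, 0.93 between Ldha and Pgk1, and 0.92 between Ldha and Pfkl. Pkm and Eno1 had an r of 0.96, and Aldoa and Gpi1 0.90. Pfkp went with Hk2 (0.83) and had an r of -0.25 with Pfkl, the other phosphofructokinase gene. Hk1 had an r between -0.45 (Pkm) and 0.47 (Hk2) with the other 9 genes. Against the mean profile of all 10, r ran from 0.96 for Aldoa and 0.93 for Gpi1 to 0.34 for Hk2 and -0.01 for Hk1. Each gene is part of that mean, which raises its own r. Among the 10858 genes with a mean of at least 5 CPM, the 10 outside the set whose pattern was most like that mean profile were Pgam1 (0.89), Gapdh (0.84), Atg2b, Tomm34, Eno1b, Sephs2, Map2k1, A230046K03Rik, Ifrd2 and Zfp106 (0.82). Pgam1 and Gapdh are the phosphoglycerate mutase and the glyceraldehyde phosphate dehydrogenase of the same pathway.

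Some of these counts can be shared with near-identical copies. Of the 50-base words of the exons of Pgk1, 53.9% also occur in another gene, nearly all in the retrocopy Pgk1-rs7, and the figure was 26% for Eno1, mostly Eno1b, and 25.8% for Pkm. Reads of such words may be counted on either gene, so the levels of Pgk1, Eno1 and Pkm are uncertain to that extent. Pgk1-rs7 took 11.3% to 14.5% of the counts of the pair with Pgk1 and Eno1b 26.5% to 32.5% with Eno1 over all 45 libraries, a narrow range beside the changes of the genes. Hk2 shared none of its words.

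The promoters of the members that moved most between days 1 and 3 are shown because Ldha, Pgk1 and Pfkl rose together there while Pfkp fell. The sequences are from RefSeq on GRCm38.p6, run from 250 bases before to 50 bases after an annotated start, and are given 5' to 3' on the strand of the gene. Capitals mark ACGTG or GCGTG on either strand (CACGT or CACGC when read on the other strand), the core letters of the hypoxia response element to which HIF proteins bind. The Ldha promoter shown lies on the positive strand at chr7:46845554-46845853, and that of Pgk1 on the positive strand at chrX:106186850-106187149. The Pfkl promoter lies on the negative strand at chr10:78009758-78010057, and that of Pfkp on the negative strand at chr13:6648722-6649021.
Ldha: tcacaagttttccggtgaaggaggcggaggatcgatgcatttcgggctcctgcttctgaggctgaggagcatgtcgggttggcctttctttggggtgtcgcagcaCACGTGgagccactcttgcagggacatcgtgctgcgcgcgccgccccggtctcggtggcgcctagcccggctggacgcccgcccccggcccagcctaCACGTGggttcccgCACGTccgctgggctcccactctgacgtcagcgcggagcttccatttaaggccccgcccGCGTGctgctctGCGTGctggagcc
Pgk1: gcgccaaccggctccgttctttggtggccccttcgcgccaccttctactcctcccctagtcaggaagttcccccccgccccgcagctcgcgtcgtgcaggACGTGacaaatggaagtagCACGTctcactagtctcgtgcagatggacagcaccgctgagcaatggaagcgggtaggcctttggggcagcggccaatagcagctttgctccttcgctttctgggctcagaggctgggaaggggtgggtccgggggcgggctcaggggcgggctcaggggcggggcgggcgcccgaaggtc
Pfkl: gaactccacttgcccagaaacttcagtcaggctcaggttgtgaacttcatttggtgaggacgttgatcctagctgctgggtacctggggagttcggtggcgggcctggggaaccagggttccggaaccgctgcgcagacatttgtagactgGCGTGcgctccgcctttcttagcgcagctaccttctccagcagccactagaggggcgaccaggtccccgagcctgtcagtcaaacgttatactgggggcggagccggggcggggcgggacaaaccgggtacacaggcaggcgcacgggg
Pfkp: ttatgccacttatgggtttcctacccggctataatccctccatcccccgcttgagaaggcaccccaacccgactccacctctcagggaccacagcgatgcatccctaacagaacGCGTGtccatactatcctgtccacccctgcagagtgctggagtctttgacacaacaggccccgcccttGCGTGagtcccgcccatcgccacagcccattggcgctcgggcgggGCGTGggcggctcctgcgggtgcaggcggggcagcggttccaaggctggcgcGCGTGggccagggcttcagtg
The Ldha window shown held 7 matches, those of Pgk1, Pfkl and Pfkp 2, 1 and 4. A second Ldha promoter, at chr7:46846832-46847131, is not shown and held 2 matches, both to GCGTG. In Ldha, 2 matches to CACGTG, the E-box bound by Myc family proteins among others, each count as a match to ACGTG on both strands. Of the 17 promoters listed for the 10 genes, 13 (76.5%) held ACGTG or GCGTG, against 43.8% of all 32851 promoters, and 9 of the 10 genes had a match in some promoter, against 46.7% of genes. The exception was Gpi1. Some of the 17 windows overlap, and those of Aldoa and of Eno1 that overlap count the same matches again. The 10 genes had 17 promoters, against 32851 promoters for 27025 genes, so the share per gene is not matched for the number of promoters. The median GC content was 64.7% in these 17 promoters and 52.7% in all, and both motifs contain CpG, so the 2 shares are not matched for base composition. CACGTG occurred in 7.15% of all promoters and in 1 of the 17, and TATAAA in 13.6% and in none. The windows shown were chosen by the changes of their genes, and a link between matches and changes was not tested. A match is a description of letters and not a bound site.

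The other genes around the pathway were counted from lists drawn up from textbook roles. Of the other glycolytic enzymes, 8 of the 15 tested were higher and 3 lower in EBs than in N2B27 at days 1 to 2, where 22% and 19.9% of all genes tested were called. Pgam2, the muscle phosphoglycerate mutase, was lower (-1.35), and Tpi1, the triose phosphate isomerase, was higher (1.02 ± 0.15, adjusted p = 0.000113), at 303, 464 and 483 CPM in EBs and 82.9, 156 and 253 CPM in N2B27 from 2iL. Gapdh, the most abundant of this list, was also higher (0.37, adjusted p = 0.000795). From day 1 to day 3, 7 of 16 rose and 1 fell from 2iL and 6 of 17 rose and 3 fell from SL (23.6% and 22% of all genes, and 21.6% and 19.8%), with rises of Hkdc1 (5.22 and 2.43), Eno2 (1.99 and 1.87) and Pklr (1.93 and 1.64), all at 5.6 CPM or less at day 1. The medians of the list in these intervals were 0.48 and 0.18. On the first day 1 of 16 rose and 1 fell from 2iL, and 2 of 17 fell from SL, where 14.6% and 14% of all genes were called higher and lower from 2iL and 8.46% and 9.69% from SL.

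Genes of transport and of the pyruvate step were counted over the same intervals, with the same shares over all genes. On the first day Slc16a3, which exports lactate, rose (2.10 from 2iL, adjusted p = 0.0023, and 1.87 from SL, adjusted p = 0.0016), while Slc2a3, the most abundant glucose transporter gene, fell (-1.18 and -1.05). Of the transport list, 2 of 7 genes rose and 1 fell from 2iL and 1 of 8 rose and 2 fell from SL. Over all genes tested, 14.6% rose and 14% fell from 2iL, and 8.46% rose and 9.69% fell from SL. Between days 1 and 3, 5 of 7 and 5 of 8 rose and none fell, where 23.6% and 21.6% of all genes rose. Slc16a7, a monocarboxylate transporter, rose by 3.90 from 2iL and 1.67 from SL, Slc2a1, a glucose transporter, by 1.96 and 0.94, Slc2a4 by 1.55 from 2iL and Slc16a1 by 1.35 from SL. Pdk1, the kinase that switches off pyruvate dehydrogenase, was at 27.4 to 41.1 CPM in 2iL at day 0 and at 177 to 305 CPM at day 1 (2.81 ± 0.35, adjusted p = 2.6e-05). SL cells were already at 233 CPM at day 0 and at 202 to 255 CPM at day 1, and the change differed between the media by 2.77 ± 0.49 (adjusted p = 0.000484). Mpc1, a subunit of the mitochondrial pyruvate carrier, fell between days 1 and 3 (-2.22 and -2.08), one of 7 of 13 genes of pyruvate entry that fell from 2iL, where none rose, and of 5 that fell from SL, where 2 rose (22% and 19.8% of all genes fell).

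Regulators and hypoxia-induced genes were described beside these. On the first day from 2iL, Myc (4.21) and Lin28a (3.55) rose, 2 of the 5 risers among 11 transcription factors and RNA-binding proteins known to act on glycolytic genes, and 1 fell, where 14.6% and 14% of all genes were called. From SL, Myc rose (1.93), and Esrrb (-1.55) and Mlxipl (-1.47) fell. Hif1a, which encodes the oxygen-sensitive subunit of HIF, did not pass between EB and N2B27 at days 1 to 2 (-0.05, adjusted p = 0.356). Of 16 hypoxia-induced genes outside glycolysis, 7 were higher in EBs than in N2B27 at days 1 to 2 and 1 was lower, where 22% and 19.9% of all genes were called. Egln3, an oxygen-sensing prolyl hydroxylase, was at 26.7 to 44.8 CPM in EBs and 7.41 to 10.3 CPM in N2B27 (1.98 ± 0.13, adjusted p = 1.6e-07), and Adm (1.83) and Ndrg1 (1.41) were higher too, Adm at under 4 CPM. Vegfa, the vascular growth factor, was lower (-0.82, adjusted p = 0.0075). The median of this list was 0.25. At days 5 and 7 none of 15 was higher in EBs and 5 were lower, against 13.1% and 15.7% of all genes. Oxygen was not measured, and a link between these genes and the 10 enzymes was not tested.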

How the data were processed

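Raw strand-specific read counts per gene were deposited by the authors for each of the 45 libraries of E14tg2a ESCs. Per the labels and the methods, rRNA-depleted RNA was sequenced, adaptors were removed with TrimGalore, reads were mapped to GRCm38/mm10 with TopHat2 and counted with featureCounts. Multi-mapping settings are not given in the sources used here. Each file holds 1 library and was assigned by its title, and 0 columns were left unused.

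Counts were tested with edgeR (version 4.0.16, limma 3.58.1, R 4.3.3), with TMM scaling, the filterByExpr filter and the quasi-likelihood F test, at a Benjamini-Hochberg adjusted p below 0.05 over all genes tested, after tests on simulated data. Day comparisons used all libraries of a medium with terms for day and course. Comparisons of courses or media matched libraries by medium and day or by course and day, and differences between media used all 45 libraries. All 10 genes passed the filter in all 16 comparisons. DESeq2 (version 1.42.0), library totals, no count filter, no course term, narrower or wider sample sets and leaving out each course or pair were the alternatives. The course was kept as a block in the day comparisons by design. Deviations from the day means correlated between days of the same course with a mean r of 0.341 from 2iL (45 pairs of libraries, lowest 0.0724) and 0.345 from SL (63 pairs, lowest 0.0542). Tables were made in Python 3.11.15 with pandas 2.3.3 and numpy 2.4.6.

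The 10 genes, the other gene lists and the tests were chosen with earlier results of these data known. All 10 genes were named. Of each further list up to 3 genes could be named for each comparison, those past the threshold with the largest absolute log2 fold change, and the most abundant gene, and the text names only some of them. Hif1a and Vegfa were added after their values were seen. A gene that this rule gives in several comparisons is not reported here. The 10 genes most like the enzymes were those with the highest correlation with the mean of their z-scored log2(CPM + 1). Lists of fructose 2,6-bisphosphate control, the pentose phosphate pathway and gluconeogenesis are given in the closing section. Shares of 50-base words and exon lengths came from the GRCm38 annotation, and promoters from RefSeq. Depth limits little here, since 3 reads correspond to 0.0754 to 0.229 CPM.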

Additional observations from a re-analysis of the deposited data

Results flagged for a closer look

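Among the genes around the pathway, 12 changed differently from 2iL than from SL in edgeR's quasi-likelihood test of the difference (log2, 2iL minus SL). From day 0 to day 1 the change was more positive from 2iL for Slc2a4, a glucose transporter (3.15, adjusted p = 0.00598), Pdk1 (2.77, adjusted p = 0.000484), Lin28a, an RNA-binding protein (2.73, adjusted p = 0.000186), Pfkfb1 (1.37, adjusted p = 0.00404), Pcx, the pyruvate carboxylase (1.12, adjusted p = 0.0254), and Pdp1, a pyruvate dehydrogenase phosphatase (0.91, adjusted p = 0.0417). These are 6 of the 11 genes of the lists called in this interval. The lists hold 20 other glycolytic enzymes, 8 transport genes, 5 genes of fructose 2,6-bisphosphate control and 13 of pyruvate entry. They also hold 7 pentose phosphate, 7 gluconeogenesis, 11 regulator and 16 hypoxia-induced genes, not all of them tested. Over all genes tested, 8.96% were called, and an excess in the lists was not tested. The change was more negative from 2iL for Pdp2 (-2.08, adjusted p = 0.000339), Kdm3a, a histone demethylase (-1.42, adjusted p = 0.00489), Pgd (-1.25, adjusted p = 0.0198), Tigar (-1.03, adjusted p = 0.00106) and Rpe (-0.65, adjusted p = 0.048). From day 1 to day 3, where 1.19% of all genes tested were called, it was more positive for Lin28b (1.92, adjusted p = 0.0047). The SL side of the first interval rests on 1 day 0 library.

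Courses also moved in opposite directions from both media for 6 of the 10 enzymes, and these differences were not tested. On the first day, Ldha changed more in EBs than in FA by 1.33 and than in N2B27 by 1.68 on the scale of log2(CPM + 1), averaged over the media. The same differences were 0.92 and 1.11 for Pfkl and 0.65 and 0.80 for Aldoa, and Eno1 differed between EBs and N2B27 by 0.60. From day 3 to day 7, Hk1 differed by -0.35 between EBs and FA and by -0.63 between EBs and N2B27, as it was lower at day 7 in both EB courses and higher in the others. Hk2 differed by -0.18 between FA and N2B27 in the same interval.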

How the results depend on the processing

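Of the values of the 10 genes under all alternatives, 1082 kept their direction and their side of the threshold, 81 were no longer past it, 27 came past it, and 0 called values changed sign. Where the number of the 10 genes called moved by more than 1.5 times it is given here, and the cause was not tested unless given. Other counts moved by 1, and DESeq2 called 6 in place of 4 between EBs and N2B27 at days 5 and 7. With library totals it was 2 at day 0 and 1 between FA and N2B27 at days 1 to 2. With DESeq2 it was 2 from day 0 to day 1 from SL and 1 between FA and N2B27 at days 5 and 7. Without the course as a replicate block it was 4 from day 1 to day 3 and 0 from day 3 to day 7 from 2iL, and 2 and 3 in these intervals from SL. With only the libraries of the 2 days, which leaves fewer samples for the spread, it was 5 from day 1 to day 3 from SL and 0 from day 3 to day 7 from both media. That fit was not run for day 0 to day 1 from SL, which has 4 libraries for 4 terms. When 1 course, pair or day 0 library was left out at a time, the count ran from 3 to 4 at day 0. It ran from 1 to 7, 4 to 10 and 0 to 6 in the 3 intervals from 2iL, and from 1 to 3, 6 to 7 and 4 to 6 from SL. For EB against N2B27 it was 8 throughout at days 1 to 2 and 0 to 4 at days 5 and 7, and for FA against N2B27 0 throughout and 0 to 1. Between media it ran from 2 to 9 at days 1 to 2 and from 0 to 1 at days 5 and 7, and for the differences in change from 0 to 2, 0 to 3 and 0 throughout.

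Counts over all genes moved as well. Without the course as a block, 3054 genes were called in place of 4663 from day 0 to day 1 and 2537 in place of 4598 from day 3 to day 7 from 2iL, and 1082 in place of 2991 and 2152 in place of 4943 from SL. The differences in change then had 493 in place of 1532 and 36 in place of 203 calls. With only the libraries of days 3 and 7, 5 and 3 genes were called. Library totals gave 2993 in place of 988 calls between FA and N2B27 at days 1 to 2. DESeq2 gave 3771 in place of 2477 at days 5 and 7, 373 in place of 38 between media at days 5 and 7, and 430 in place of 203 and 30 in place of 0 for the later differences in change, where no filter gave 2. A pseudocount of 0.1 CPM moved no difference within a course by more than 0.0612. Course and replicate are the same here, so a p-value does not measure repeats of a course.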

Other observations

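Genes that tune phosphofructokinase through fructose 2,6-bisphosphate moved on the first day. From 2iL, Tigar (-1.18), Pfkfb4 (-1.18) and Pfkfb2 (-1.14) fell, and 1 of the 5 genes of this list rose, where 14% of all genes tested fell and 14.6% rose. At days 1 to 2, Pfkfb3 (0.93) and Pfkfb1 (0.60) were among 3 genes higher in EBs than in N2B27, and Pfkfb4 (-0.54) was among 2 that were lower, where 22% and 19.9% of all genes tested were called. Of 7 genes of the pentose phosphate pathway, which branches off after hexokinase, Rpe fell on the first day from 2iL (-0.52) and none rose, while G6pdx (0.70), Rpe (0.30) and Pgd (0.24) were higher in EBs than in N2B27 and 1 gene was lower. Of the 5 genes of gluconeogenesis tested there, Fbp1 (-1.32) and Fbp2 (-1.22) were lower in EBs. On the first day from 2iL, Fbp1 (2.46) and Pcx (0.58) rose and Pck2 fell (-1.95).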
